A study of Mus musculus with 6 samples.

Results

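The miRNAs described here come from hairpins at imprinted loci, that is, loci from which 1 parental copy is mainly transcribed: miR-335 of Mest, miR-483 of Igf2, miR-675 of H19, and miR-296 and miR-298 of the Nespas locus. They were picked by miRNA number, with every arm and every asterisked strand kept, which gave 8 of the 689 miRNAs in the table. These were miR-335-5p, miR-335-3p, miR-483, miR-483*, miR-675-3p, miR-296-5p, miR-296-3p and miR-298. The cells were wild-type cardiomyocytes of Swiss Webster mouse embryos at E16.5, cultured on collagen-coated flexible plates, and 3 static cultures and 3 cultures exposed for 24 hours to 16% cyclic stretch at 1 Hz were labelled. The methods name CD1 mice and a larger number of samples, and nothing in the labels says which cultures came from separate litters. The small RNA was sequenced, and each value below is the authors' mean log2 abundance over both groups. It is read here as the log2 of a miRNA's share of all miRNA reads. Shares, percentages of reads and sums below are derived from this mean and are not counted fractions of reads. Levels in single cultures and in each group were not analysed here, so no value carries a spread between replicates, levels, ranks and arm differences may not be the same in both groups, the depth is unknown, differences between miRNAs were not tested, and stretched cultures are not compared with static ones.

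Mest, also named Peg1, codes for a hydrolase-like protein and is expressed from the paternal copy in embryonic mesoderm. Igf2, a fetal growth factor, is expressed from the paternal copy, and H19, the long noncoding RNA beside it, from the maternal copy. Nespas is a paternally expressed antisense transcript at the Gnas locus. A miRNA is cut from an RNA hairpin, either of whose arms can be loaded into the silencing complex. The seed, bases 2 to 8 of the mature strand, directs most of its pairing with target mRNAs.

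The mature sequences are shown because the seed sets which messages a miRNA can recognise and because the arms of 1 hairpin are read apart by sequence only. They are RefSeq sequences on GRCm38.p6, 5′ to 3′, with the seed in capitals.
miR-335-5p: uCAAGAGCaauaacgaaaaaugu
miR-335-3p: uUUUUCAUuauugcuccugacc
miR-483-5p: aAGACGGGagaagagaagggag
miR-483-3p: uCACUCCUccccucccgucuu
miR-675-5p: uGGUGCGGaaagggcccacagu
miR-675-3p: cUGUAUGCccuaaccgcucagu
miR-296-5p: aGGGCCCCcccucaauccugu
miR-296-3p: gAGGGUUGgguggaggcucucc
miR-298-5p: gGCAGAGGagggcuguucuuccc
miR-298-3p: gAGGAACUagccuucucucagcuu

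For 5 of the 8 miRNAs the name in the table and in RefSeq was the same. The other 3 carry names without an arm. They were taken by the older miRNA naming, with miR-483 as the 3p arm, miR-483* as the 5p arm and miR-298 as the 5p arm, which the files used here do not state and which was not tested. Every statement on the arms of miR-483 and miR-298 rests on it. With this assignment, the table lists 8 of the 10 mature strands, and miR-675-5p and miR-298-3p have no row. The 10 strands have 10 different seeds, and none of these seeds occurs in another of the 1738 mature mouse miRNAs in the RefSeq table, so the members of this group do not form a seed family with each other or with any other miRNA there. The longest run that a member strand shares with another mouse hairpin was 9 to 12 bases. Tags of at least 18 nt were kept, so a full tag of one of these strands is told apart from the other hairpins. miR-335 differs from the rest in base composition: its 5p arm is 30.4% G and C and its 3p arm 36.4%, whereas the strands of the other 4 hairpins range from 50.0% in miR-298-3p to 68.2% in miR-296-3p. The median of the 1738 mature strands is 52.2%.

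The hairpins are shown for their places in the host genes, with both mature arms in capitals.
Mir335: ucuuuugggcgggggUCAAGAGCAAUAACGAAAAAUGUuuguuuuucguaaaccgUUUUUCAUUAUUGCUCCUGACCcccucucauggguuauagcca
Mir483: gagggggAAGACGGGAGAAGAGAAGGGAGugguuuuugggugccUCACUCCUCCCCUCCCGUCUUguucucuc
Mir675: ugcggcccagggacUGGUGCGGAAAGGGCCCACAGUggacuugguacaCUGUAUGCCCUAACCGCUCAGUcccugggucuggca
Mir296: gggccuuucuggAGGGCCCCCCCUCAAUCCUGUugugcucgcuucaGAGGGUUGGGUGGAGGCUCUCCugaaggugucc
Mir298: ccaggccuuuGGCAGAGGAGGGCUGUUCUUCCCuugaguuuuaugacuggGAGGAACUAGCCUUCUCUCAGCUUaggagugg

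In GRCm38, Mir335 lies at chr6:30741299-30741396 on the plus strand. It is in an intron of each of the 7 Mest transcripts, of 11 annotated, that span it. Mir483 lies at chr7:142654924-142654996 on the minus strand, in an intron of each of the 7 Igf2 transcripts, of 9, that span it, and also within the annotated gene Gm49394. Mir675 lies at chr7:142577064-142577147 on the minus strand, 77.8 kb from Mir483. Of the 4 H19 transcripts that span it, 3 hold it in an exon and 1 in an intron, which sets it apart from the intronic hairpins of Mest and Igf2. Mir296 lies at chr2:174267047-174267125 and Mir298 at chr2:174267504-174267585, both on the minus strand and 378 bases apart. In the GENCODE annotation neither is inside Nespas, which runs from 174281237 to 174295436 on the same strand, so that Mir298 lies 13.7 kb and Mir296 14.1 kb beyond its annotated 3′ end. "Nespas locus" is therefore used here for the neighbourhood and not for a measured host transcript.

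miR-298 was the most abundant of the 8 miRNAs, and the loci differed widely. The authors' mean abundance of miR-298 was -7.60 on the log2 scale, a derived share of 0.518% of the miRNA reads and rank 23 of 689. It lay between miR-151-3p, at -7.37, and miR-126-5p, at -7.75. The 8 miRNAs together held 0.657% of the miRNA reads, and miR-298 alone made up 78.7% of that sum. For scale, miR-22, the most abundant miRNA of the table, held 20.6%, and it was followed by miR-143 with 13.4%, miR-99b with 11.7%, miR-27b with 7.49% and miR-127 with 7.19%.

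The arms of the Mest hairpin came next. miR-335-3p had an authors' mean of -10.01, a share of 0.0974% and rank 60. miR-335-5p had an authors' mean of -11.73, a share of 0.0296% and rank 99. The strand named 3p was thus the more abundant of the pair, by 1.72 on the log2 scale or 3.29-fold. It held 76.7% of the derived share of its hairpin. In abundance miR-335-3p stood between miR-423-3p and let-7d*, and miR-335-5p between miR-92a and miR-93, with gaps of at most 0.063 on the log2 scale.

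**Figure D1:**
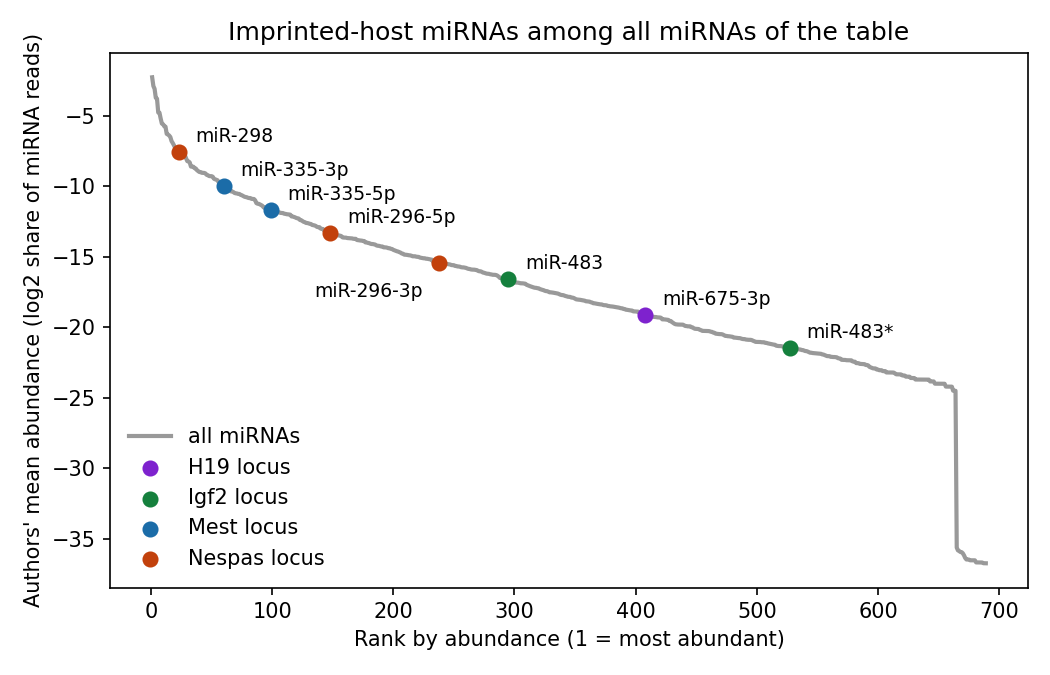
The authors' mean abundance (log2 share of miRNA reads, vertical axis) of all 689 miRNAs against rank (horizontal axis), with the 8 miRNAs as points coloured by locus. They spread from rank 23 for miR-298 to rank 527 for miR-483*, and none is among the 25 values below -30.

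At the Nespas locus the neighbouring hairpins were far apart in level. miR-296-5p had an authors' mean of -13.36, a share of 0.00956%, at rank 148, between miR-666-5p and miR-382. miR-296-3p had an authors' mean of -15.49, a share of 0.00218%, at rank 238, between miR-485 and miR-26b*. Here the 5p arm was the more abundant, by 2.13 on the log2 scale or 4.39-fold, the opposite arm to that of miR-335. Both arms of Mir296 added up to 0.0117% of the miRNA reads, and the single listed arm of Mir298 to 0.518%, 44.1-fold more (5.46 on the log2 scale). Among 44 pairs of neighbouring hairpins in the table, on the same strand and within 1 kb of each other, the median difference was 2.07 on the log2 scale. The difference between Mir296 and Mir298 was larger than that of 34 pairs and smaller than that of 9. That count is a description, since the pairs share clusters and libraries.

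The miRNAs of Igf2 and H19 had the lowest levels of the 5 hairpins, with miR-483 above the median of all 689 miRNAs (-17.86) and miR-675-3p and miR-483* below it. miR-483, the 3p arm, had an authors' mean of -16.63 at rank 295, a share of 0.000993%. miR-483*, the 5p arm, had an authors' mean of -21.50 at rank 527, a share of 3.38e-05%. The 3p arm exceeded the 5p arm 29.4-fold (4.88 on the log2 scale) and held 96.7% of the derived share of the hairpin. miR-675-3p of H19 had an authors' mean of -19.16 at rank 408, a share of 0.000172%. Added over arms, Mir483 stood 5.97-fold above Mir675, with miR-675-5p not listed. In abundance order, miR-483 lay between miR-205 and miR-582-5p, miR-675-3p between miR-1191 and miR-494, and miR-483* between miR-200b* and miR-452-5p. The number of reads behind these low values is unknown, so their counting error cannot be given.

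**Figure D2:**
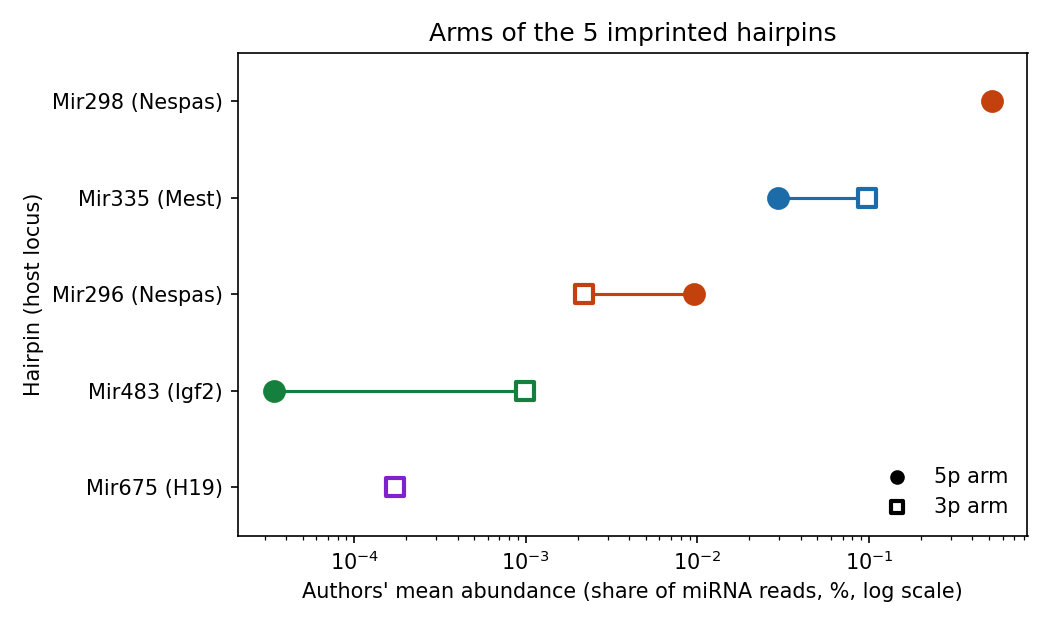
The authors' mean abundance of each arm (share of miRNA reads in %, logarithmic horizontal axis) by hairpin, with filled circles for 5p arms, open squares for 3p arms and a line joining arms of 1 hairpin. The more abundant arm is 3p for Mir335 and Mir483 and 5p for Mir296, while Mir298 and Mir675 have 1 listed arm each.

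Of the summed share, Mir298 and Mir296, outside any annotated host, held 80.5% together, the hairpin in Mest held 19.3%, that in Igf2 0.156% and that in H19 0.0262%. Mir335 stood 10.8-fold above Mir296 and 124-fold above Mir483, and Mir298 stood 4.08-fold above Mir335. Listed strand by strand, the order was miR-298, miR-335-3p, miR-335-5p, miR-296-5p, miR-296-3p, miR-483, miR-675-3p and miR-483*. The smallest step in this order was 1.13 on the log2 scale, between miR-296-3p and miR-483, and the largest was 2.53, between miR-483 and miR-675-3p. Without values of single cultures, whether neighbours in this order differ beyond the spread between cultures was not tested.

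The arm differences were compared with those of all 238 names in the table that have both arms listed. The median absolute difference was 4.06 on the log2 scale, or 16.7-fold, with quartiles of 1.85 and 7.69. The miR-335 arms were closer than most, since 55 pairs (23.1%) differed less, and 71 pairs (29.8%) differed less than the arms of miR-296. The miR-483 arms were near the middle, with 57.1% of the pairs below them. Without pairs that include a value below -30, the median was 3.91 over 228 pairs.

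**Figure D3:**
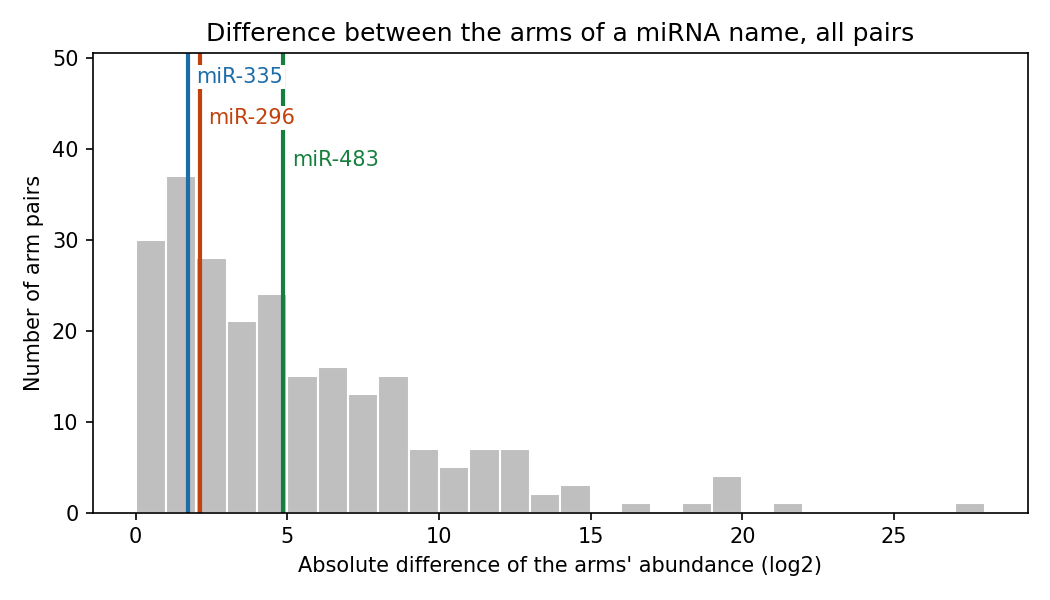
Number of arm pairs (vertical axis) by the absolute log2 difference between their arms (horizontal axis, bins of width 1) for 238 names, with lines at miR-335 (1.72), miR-296 (2.13) and miR-483 (4.88). The first 2 lie below the median of 4.06 and miR-483 lies above it.

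Other imprinted miRNA loci gave a scale for these levels. The median of the 8 miRNAs was -14.43 on the log2 scale, while that of all 689 miRNAs was -17.86. The 93 miRNAs listed here for the Dlk1-Dio3 locus, whose miRNA cluster is maternally expressed, had a median of -15.81 and a summed share of 10.4%, led by miR-127. The list is not complete: it leaves out miR-1188, at -20.58 and 226 bases from the listed miR-341, and miR-1188*, at -23.35. Of the 93 listed, 3 were above miR-298 and 7 above miR-335-3p. The 54 miRNAs with the numbers of the Sfmbt2 intron cluster had a median of -21.10 and a summed share of 0.0117%, and none exceeded miR-335-3p. Their highest value, -14.98 for miR-467a, was below miR-296-5p and above miR-296-3p. The summed share of the Sfmbt2 list counts strands of identical value separately, such as miR-669a-5p and miR-669p. The lists differ in size and were not tested against each other.

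**Figure D4:**
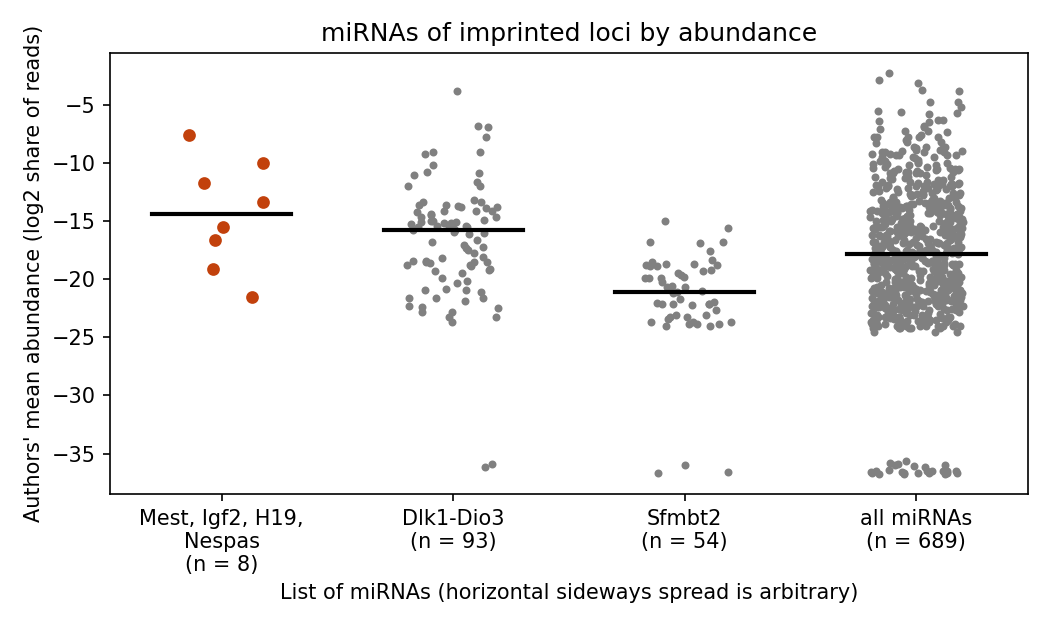
The authors' mean abundance (log2 share of reads, vertical axis) of the 8 miRNAs, of the Dlk1-Dio3 and Sfmbt2 lists and of all miRNAs, 1 point per miRNA, with a bar at each median. The medians are -14.43, -15.81, -21.10 and -17.86.

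The label of the cells was checked against miRNAs that mark cell types. All 5 cardiomyocyte names were listed, miR-1 as miR-1a, and their 11 strands held 1.51% of the reads. Most of this was miR-208b, with 1.18% at rank 15. The main strands of the other names were lower: miR-133a held 0.187%, miR-208a-3p 0.0750%, miR-1a 0.0397% at rank 90 and miR-499 0.0215% at rank 118. The 4 smooth muscle strands held 13.5%, nearly all of it miR-143, the 6 fibroblast strands 0.625% and the 2 endothelial strands 0.479%. The endothelial sum was nearly all miR-126-5p, at 0.466%, with miR-126-3p at 0.0130%. The fibroblast sum counts miR-199a-3p and miR-199b separately, although both have the same value, 0.159% each. Its order against the endothelial sum is therefore not read here. The white blood cell strands (4) held 0.00814%, the epithelial strands (8) 0.00370% and the red blood cell strands (3) 0.000180%. miRNAs used as markers of several cell types were thus present, and fewer cells of a type and less of a miRNA per cell cannot be told apart. Whether these strands came from other cells or from the cardiomyocytes themselves was not tested. miR-298, both arms of miR-335 and miR-296-5p were above every white blood cell, epithelial and red blood cell strand. miR-296-3p was below 1 of these strands, the white blood cell strand miR-142-5p at rank 165, and above the others. miR-483, miR-675-3p and miR-483* lay within the range of the epithelial strands, whose ranks run from 281 to 526, or just below it in the case of miR-483*. The part of other cell types in these levels was not tested.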

How the data were processed

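Small RNA of cultured mouse cardiomyocytes was sequenced after TruSeq Small RNA library preparation. Per the methods, reads were filtered and trimmed, and small RNA tags were retained, aligned to the mouse genome with Bowtie2 and summed for each ID. The authors used edgeR to obtain expression levels. The submitters' processing notes name Bowtie2 and DESeq. Genome build, versions and any filter on low counts are not given in the sources used here.

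The deposited abundance column is 1 mean log2 value over all samples, made by the authors. It was read as the log2 of a share because 2 to the power of its values sums to 0.995 over 689 miRNAs. Shares computed from such a mean are not counted fractions of reads. The other 4 columns hold the authors' comparison of stretched with static cultures (log2 fold change, signed fold change, P value and FDR) and were not used. Without values per sample, depth, precision and spread are unknown, and no test was run. Ligation and amplification in library preparation can differ between sequences, and their part in differences between miRNAs was not tested.

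Shares were computed from the abundance and rescaled to their sum. Arms were paired by name. The 25 values below -30 lie apart from the rest (at most -35.6, against at least -24.5). The steps were tested on simulated data. Hosts came from GENCODE M21 and sequences from RefSeq GRCm38.p6. Named miRNAs were the members, their neighbours in abundance, any miRNA sharing a seed (0 were found), the 5 most abundant and cell type markers; others, such as miR-467a, were named after their values were seen. The members and lists were chosen with earlier results of these data known. Python 3.11.15, numpy 2.4.6, pandas 2.3.3 and matplotlib 3.10.9 were used. The alternatives were other totals, identical values counted once, values below -30 left out, the more abundant arm only and names without an asterisk.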

Additional observations from a re-analysis of the deposited data

How the results depend on the processing

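Of 36 values recomputed under the alternatives, 33 stayed within 1.5-fold of the value reported (0.58 on the log2 scale for medians). The summed share of the 8 miRNAs, 0.657%, rose to 2.58% when the 10 most abundant miRNAs were left out of the total, because that total is smaller. The median of the members, -14.43, was -13.36 with only the more abundant arm of each of the 5 hairpins, which drops the rarer strands. The Dlk1-Dio3 median, -15.81, was -15.10 without asterisked names, so it stayed below that of the members. All 21 recomputed ranks stayed within 1.5-fold, and no alternative changes a difference between arms, since both come from 1 column.

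No paired analysis was possible because 1 mean over both groups was used, with nothing per sample. For the same reason no fit leaving out a replicate was run. The depth is unknown, so what it limits cannot be given.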
